A study of Mus musculus with 5 samples.

Results

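The mature guide arms of the miR-17-92 and miR-106b-25 clusters were followed in mouse back skin on 5 single-colour miRNA microarrays. The members were the 9 probes named for these arms among the 1900 mouse miRNAs on the array. They were chosen by name, not by their values, although earlier results of these data were known. Of the 9 members, 6 belong to the miR-17-92 cluster (mmu-miR-17-5p, mmu-miR-18a-5p, mmu-miR-19a-3p, mmu-miR-20a-5p, mmu-miR-19b-3p and mmu-miR-92a-3p) and 3 to the miR-106b-25 cluster (mmu-miR-106b-5p, mmu-miR-93-5p and mmu-miR-25-3p). Female mice aged 2 years gave unwounded skin (D0) and wounds taken on days 3, 5 and 7 (D3, D5 and D7) after a full-thickness punch biopsy of 3 mm in telogen, the resting stage of the hair cycle. Female mice aged 8 weeks gave unwounded telogen skin only. Each of these 5 conditions had 1 array, so no test across animals was possible and no p-value is given. The strain and genotype of the mice, and whether a sample came from 1 animal or several, are not given in the sources used here.

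Each cluster is transcribed as a single primary RNA that carries several miRNA hairpins, and each hairpin is cut out and matured separately, so mature levels within a cluster need not move together. The miR-17-92 transcript comes from its own host gene, Mir17hg, whereas miR-106b, miR-93 and miR-25 lie inside Mcm7, a gene for a DNA replication licensing factor. The miRNAs of both clusters are known to promote proliferation and survival, and E2F transcription factors, p21 (Cdkn1a) and Bim (Bcl2l11) are among their textbook targets. In wounded skin, miR-17-92 members are known to limit the inflammatory response of keratinocytes. A miRNA finds its targets mainly through its seed, bases 2 to 8 from its 5′ end, and members with the same seed are expected to share targets.

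The 9 mature sequences are shown because they set both the targets and the probes. All 9 names matched a mature miRNA in RefSeq (GRCm38.p6), and in all 9 the RefSeq sequence was the target given in the array files. The array files name no genome build, so positions are those of RefSeq. Each sequence runs 5′ to 3′, and capitals mark the seed. In the miR-17 seed family, whose members pair through AAAGUGC, miR-17-5p lies at chr14:115043684-115043706 (plus strand), miR-20a-5p at chr14:115044183-115044205 (plus strand), miR-106b-5p at chr5:138165787-138165807 (minus strand, within Mcm7) and miR-93-5p at chr5:138165574-138165596 (minus strand, within Mcm7).
mmu-miR-17-5p: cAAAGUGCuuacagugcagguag
mmu-miR-20a-5p: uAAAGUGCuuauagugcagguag
mmu-miR-106b-5p: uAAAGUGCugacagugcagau
mmu-miR-93-5p: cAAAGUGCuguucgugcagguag

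The seed of miR-18a-5p, at chr14:115043867-115043889 (plus strand), differs from that of miR-20a-5p by G4A, with miR-18a-5p written as the reference and positions counted from 1 at the 5′ end.
mmu-miR-18a-5p: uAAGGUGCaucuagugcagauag

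The miR-92 seed, AUUGCAC, occurs in both clusters. The annotation places miR-92a-3p at chr14:115044476-115044496 (plus strand, within Mir17hg), with a second copy at chrX:52741854-52741874 (minus strand), and miR-25-3p at chr5:138165332-138165353 (minus strand, within Mcm7).
mmu-miR-92a-3p: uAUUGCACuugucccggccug
mmu-miR-25-3p: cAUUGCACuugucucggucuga

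The miR-19 seed, GUGCAAA, occurs only in the miR-17-92 cluster among the members. The sequence of miR-19a-3p lies at chr14:115044048-115044070 (plus strand), and that of miR-19b-3p at chr14:115044358-115044380 (plus strand) with a second copy at chrX:52741991-52742013 (minus strand). Because of the X-chromosome copies, which belong to the paralogous miR-106a-363 cluster, the signals of miR-19b-3p and miR-92a-3p cannot be assigned to a single locus.
mmu-miR-19a-3p: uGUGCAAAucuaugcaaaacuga
mmu-miR-19b-3p: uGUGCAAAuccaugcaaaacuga

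Several targets on the array differ by few bases. Between miR-17-5p and miR-20a-5p the differences are C1U and C12U, and between miR-19a-3p and miR-19b-3p the difference is U11C. The paralog miR-106a-5p differs from miR-17-5p by U10A. Binding of one miRNA to the probe of another was not tested, and this applies to every value of such pairs.

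A miRNA was called detected where its mean scanned intensity exceeded the 95th percentile of the 4 empty spots of that array, and bright where it exceeded 2 times that level. Between 589 and 1768 of the 1900 miRNAs were detected on an array, and 498 were detected on all 5. The detection level was 58.3 on the D3 array and 61.1 on the D5 array, and lay between 99.0 and 107 on the other 3. All 4 epidermal markers (miR-203-3p, miR-205-5p, miR-200a-3p and miR-200b-3p) were bright on all 5 arrays, and so were all 4 skeletal muscle markers (miR-1a-3p, miR-133a-3p, miR-133b-3p and miR-206-3p).

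Among the members, 8 were detected and 7 were bright on all 5 arrays, against 199 bright miRNAs in all. The exceptions were miR-18a-5p and miR-19a-3p. The miR-18a-5p probe stayed close to the detection level, with scanned intensities of 133 in young skin and of 132, 118, 112 and 162 in aged skin at D0, D3, D5 and D7. Only the D3 array called it bright. The miR-19a-3p probe read 93.5 in young skin and 77.9, 65.3, 53.5 and 113 in aged skin at D0, D3, D5 and D7, and was above the detection level on D3 and D7 only. It was not well above background on any array, so no fold is given for it.

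**Figure D1:**
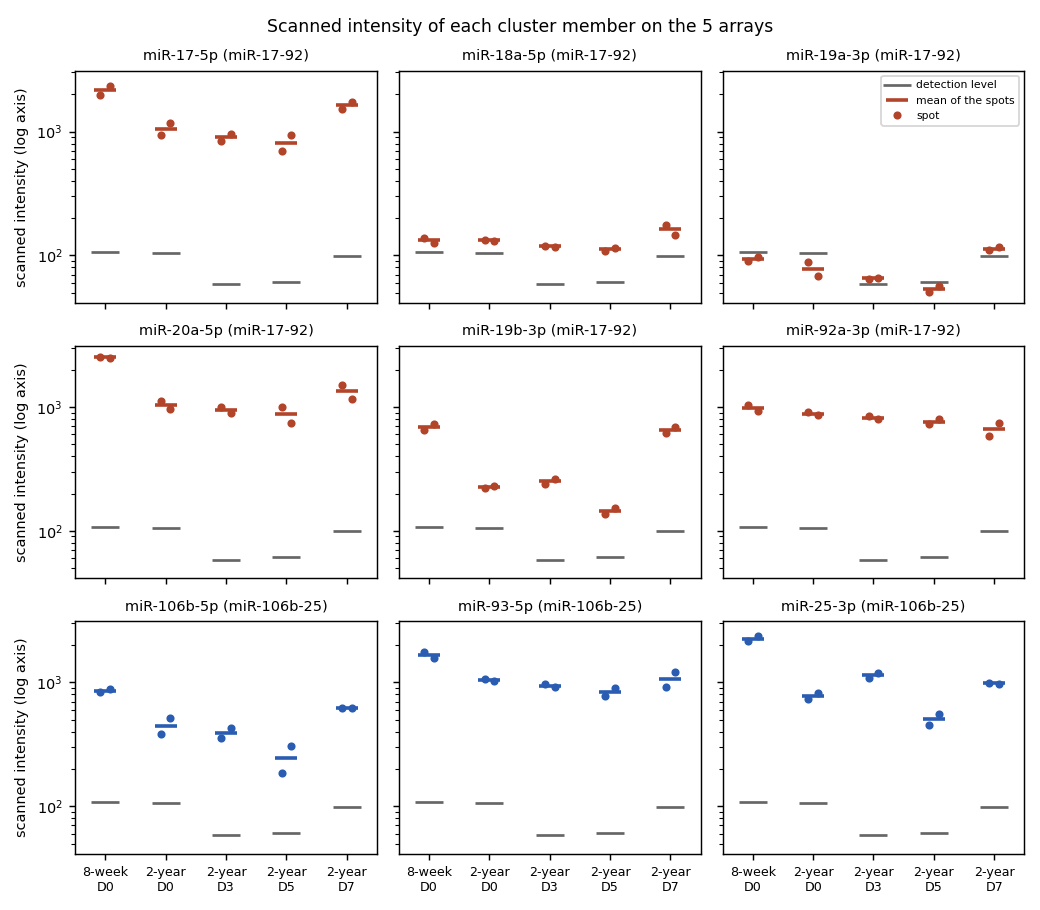
Scanned intensity (log axis) of the 9 members in 8-week-old unwounded skin and in 2-year-old skin at D0, D3, D5 and D7, with 2 spots (points) per array, their mean (coloured bar) and the array's detection level (grey bar). Red marks miR-17-92 and blue miR-106b-25. The probes of miR-18a-5p and miR-19a-3p lie near the detection level, miR-19b-3p goes from 145 on D5 to 653 on D7, and miR-92a-3p lies within 662 to 982 on all 5 arrays.

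The 4 members with the miR-17 seed were bright throughout. For miR-17-5p, the scanned intensity was 2158 in young skin, and 1057, 901, 815 and 1634 in aged skin at D0, D3, D5 and D7. The corresponding values for miR-20a-5p were 2515, then 1039, 954, 873 and 1333. Both probes followed the same order of arrays, with young skin brightest and D5 dimmest. For miR-93-5p, the intensity was 1660 in young skin, then 1052, 942, 833 and 1066 in aged skin. For miR-106b-5p it was 855 in young skin, then 447, 393, 246 and 624. The D5 array was again the dimmest for both, and the drop to D5 was steeper for miR-106b-5p.

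Within the miR-92 seed, miR-92a-3p read 982 in young skin, then 883, 820, 762 and 662 in aged skin at D0, D3, D5 and D7, so D7 was its dimmest array. The intensity of miR-25-3p was 2255 in young skin, then 775, 1137, 504 and 987, with a peak on D3 and a low on D5 among the aged samples. For miR-19b-3p, the bright member with the miR-19 seed, young skin gave 691 and aged skin 226, 250, 145 and 653. Its D7 scan was close to that of young skin, but its quantile-normalized log2 level was higher on D7, at 9.09 against 8.46. All 9 members scanned brighter on the young array than on the aged D0 array.

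The arrays differed in overall brightness, so the ratios that follow use background-corrected and quantile-normalized levels. They are given with the ratio of each of the 2 spots and with the range over 8 other ways of processing. The choice of scaling moved the median ratio of the bright miRNAs over 0.528 to 1.13 for D3 over D0, 0.584 to 1.05 for D5, 0.760 to 1.28 for D7 and 0.416 to 1.54 for aged over young skin. The 7 bright members were therefore also placed among all miRNAs bright on both arrays, as a percentile of their ratios, which a common scale factor does not change. Repeat spots gave SDs of the log2 ratio of 0.14 for D3, 0.13 for D5, 0.25 for D7 and 0.14 for aged over young skin. These describe the array alone and hold no variation between animals. In whole skin, fewer cells of a type and less RNA per cell cannot be told apart.

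On D3, most members were near their D0 levels under quantile normalization, and their median ratio lay above that of bright miRNAs in general. None of the 9 members (0 of 9) was at least 2-fold higher or lower, against 6.09% of the 1772 miRNAs with a detected signal on D3, D0 or both. Of these 1772 miRNAs, 207 were bright on both arrays, whereas 7 of the 9 members were. The share past 2-fold among bright miRNAs alone was not computed, here or for the other comparisons. Each count of members is thus set against a mostly dimmer background, so the shares are not like for like. The median ratio of the members was 0.961, that of the 207 bright miRNAs was 0.781, and the members' median was 1.12 to 1.31 times the bright median over all settings. The largest ratio was that of miR-25-3p at 1.47 (spots 1.48 and 1.46, range 0.955 to 2.04). It lay at percentile 79.7 of the bright miRNAs, and was above 1 in 7 of the 8 alternatives. The lowest under quantile normalization was miR-106b-5p, a neighbour of miR-25-3p in the same Mcm7-encoded transcript. Its ratio was 0.719 (spots 0.768 and 0.674, range 0.577 to 1.23, percentile 44.0). The ratio of miR-17-5p was above that of miR-106b-5p in only 4 of the 8 alternatives.

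The contrast between miR-25-3p and its Mcm7 neighbours had the same direction in all 8 alternatives. The ratio of miR-25-3p was 2.04 times that of miR-106b-5p (range 1.65 to 2.35) and 1.62 times that of miR-93-5p (range 1.61 to 1.64). It was also 1.53 times that of miR-92a-3p (range 1.53 to 1.68), with which it shares a seed. The other bright members lay between 0.885 for miR-17-5p and 0.983 for miR-19b-3p, and miR-18a-5p gave 0.997.

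On D5, 3 members read lower than in unwounded aged skin in all 8 alternatives, and no member was higher in all of them. At the 2-fold threshold, none of the 8 members detected on at least 1 of the arrays (0 of 8) passed, against 5.28% of 1079 miRNAs. Of these 1079 miRNAs, 204 were bright on both arrays, against 7 of the 8 members. The lowest member was miR-106b-5p with a ratio of 0.526 (spots 0.480 and 0.576, range 0.420 to 0.757), at percentile 12.3 of 204 bright miRNAs. Next came miR-19b-3p with 0.680 (spots 0.644 and 0.718, range 0.510 to 0.919) and miR-25-3p with 0.777 (spots 0.722 and 0.835, range 0.494 to 0.890). The median ratio of the bright miRNAs was 0.932, so all 3 also lay below it.

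The remaining detected members were close to 1 on D5 under quantile normalization. The ratio was 0.982 for miR-17-5p (range 0.583 to 1.05), 1.07 for miR-20a-5p (range 0.631 to 1.16) and 1.04 for miR-93-5p (range 0.599 to 1.12). It was 1.10 for miR-92a-3p (range 0.654 to 1.18) and 1.10 for miR-18a-5p (range 0.689 to 1.24). Members that share the miR-17 seed thus separated: the ratio of miR-20a-5p was 2.03 times that of miR-106b-5p (range 1.5 to 2.30), and that of miR-93-5p, encoded beside miR-106b, was 1.99 times (range 1.42 to 2.21). Compared directly with D3, the D5 level of miR-25-3p was 0.529 (range 0.409 to 0.538), at percentile 11.5 of 278 bright miRNAs. Its D3 maximum was therefore followed by its lowest aged level.

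On D7, the miR-17-92 members moved apart. The ratio of miR-19b-3p was 1.81 (spots 1.71 and 1.91, range 1.76 to 2.96, percentile 91.1 of 203 bright miRNAs), above 1 in all 8 alternatives. That of miR-92a-3p was 0.497 (spots 0.434 and 0.569, range 0.451 to 0.759, percentile 9.36), below 1 in all 8. The hairpins of miR-19b and miR-92a are the last of the miR-17-92 transcript and lie side by side, both there and on the X chromosome. The change of miR-19b-3p over that of miR-92a-3p was 3.64 (range 3.5 to 4.0), the widest of the 21 pairs of bright members under the main processing. At aged D0, miR-19b-3p scanned at 2.14 times the detection level, close to the cut for bright, and miR-92a-3p at 8.37 times. At the 2-fold threshold, 1 of 9 members passed (miR-92a-3p, lower), against 4.35% of 1565 miRNAs. Of these 1565 miRNAs, 203 were bright on both arrays, against 7 of the 9 members.

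The other members lay between these extremes on D7. The ratio was 1.06 for miR-17-5p, 0.886 for miR-18a-5p, 0.871 for miR-20a-5p, 0.838 for miR-25-3p, 0.818 for miR-106b-5p and 0.681 for miR-93-5p. The 2 spots of miR-93-5p disagreed (0.556 and 0.834), and the members' median of 0.871 was close to the bright median of 0.895. From D5 to D7, miR-19b-3p had a ratio of 2.66 (spots 2.65 and 2.66, range 2.36 to 5.60) and miR-106b-5p one of 1.56 (range 1.39 to 3.30), and D5 was the lowest aged level of both. Over the same interval miR-92a-3p gave 0.452 (range 0.435 to 1.12), below 1 in all but 1 of the 8 alternatives.

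**Figure D2:**
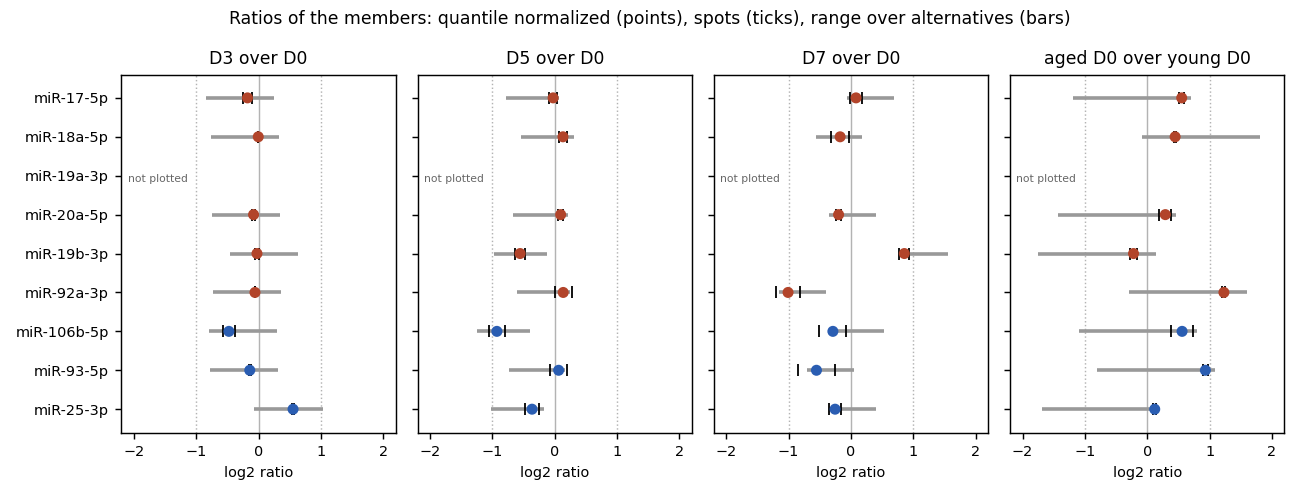
Log2 ratio of each member on the 3 wound days against D0, and in aged against young skin before wounding, with the quantile-normalized value (point), the values of the 2 spots (ticks) and the range over 8 alternatives (grey bar). Dotted lines mark 2-fold, red is miR-17-92, blue is miR-106b-25, and miR-19a-3p is not plotted. On D7, the bars of miR-19b-3p and miR-92a-3p lie wholly on opposite sides of 0, while every bar of aged over young skin crosses 0.

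Of the 27 wound ratios of the 9 members, with the 3 of miR-19a-3p counted, 5 kept their direction in all 8 alternatives. These were miR-106b-5p, miR-19b-3p and miR-25-3p on D5, and miR-19b-3p and miR-92a-3p on D7. The deposited processed intensities, whose scaling is not stated, served as 1 of these alternatives. In them, miR-19b-3p read 242 at D0, 127 on D5 and 454 on D7, and miR-92a-3p read 922, 1044 and 494. The 3 wound days share the D0 array, so an error of that array would enter all 27 ratios.

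In aged over young unwounded skin, the direction of each member depended on the scaling. The order of the 7 bright members, which a common factor per array cannot change, was the same throughout. None of the 9 members kept its direction in all 8 alternatives. Under quantile normalization, miR-92a-3p had the largest ratio at 2.35 (spots 2.31 and 2.39), followed by miR-93-5p at 1.91 (spots 1.85 and 1.97). Next were miR-106b-5p and miR-17-5p, both at 1.47, miR-20a-5p at 1.22, miR-25-3p at 1.09 and miR-19b-3p at 0.859. The dim miR-18a-5p gave 1.36 (range 0.944 to 3.5), and with 75th percentile scaling it exceeded miR-92a-3p (3.02). The order was the same in all 8 alternatives for all 21 pairs of bright members. Among unnormalized values and 75th percentile, median and spike control scaling, which differ by a factor per array, it could not differ. Adjacent in this ranking, the ratios of miR-106b-5p and miR-17-5p differed by less than the spread of repeat spots.

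The position among all bright miRNAs varied less with the scaling. The ratio of miR-92a-3p lay between percentiles 93.8 and 96.7 of the 210 bright miRNAs, and that of miR-93-5p between 80.5 and 91.0. By contrast, miR-19b-3p lay between percentiles 21.0 and 28.1, and miR-25-3p between 25.7 and 43.3. The ratio of miR-92a-3p was 2.73 times that of miR-19b-3p (range 2.72 to 2.91) and 2.16 times that of miR-25-3p (range 2.15 to 2.65). At the 2-fold threshold, 1 of the 8 members detected on at least 1 of the arrays passed (miR-92a-3p, higher), against 8.34% of 779 miRNAs. Of these 779 miRNAs, 210 were bright on both arrays, against 7 of the 8 members. Without normalization between arrays and with median scaling, the ratio of miR-92a-3p turned to 0.905 and 0.815.

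The aged D0 array enters both this comparison and all 3 wound ratios. In the deposited processed values, miR-92a-3p read 379 in young skin, 922 in aged skin at D0 and 494 on D7, and miR-19b-3p read 286, 242 and 454. With 1 array a condition, an error of the aged D0 array would move both comparisons.

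**Figure D3:**
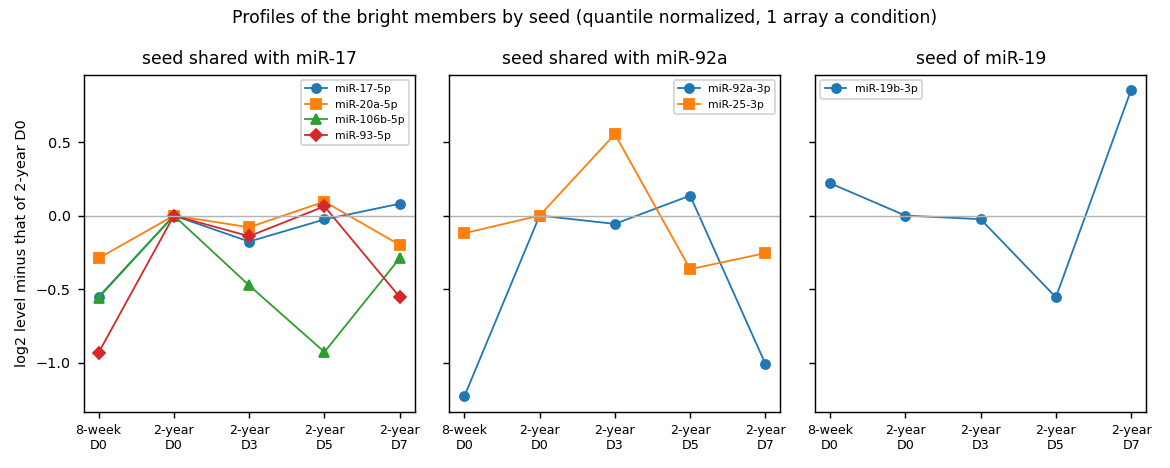
Quantile-normalized log2 level of the 7 bright members minus their own level in 2-year-old D0 skin, by seed, with 1 array a condition. Among members with the miR-17 seed, miR-106b-5p departs from the others on D5 at -0.93, while miR-25-3p peaks on D3 at a log2 difference of 0.55, and miR-92a-3p and miR-19b-3p end at -1.01 and 0.86 on D7.

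Profiles lay closer on the median for members with a common seed than for members with a common cluster alone. Likeness was measured as the root mean square distance between log2 profiles over the 5 arrays, each centred on its own mean. The median distance was 0.34 for the 2 pairs that share cluster and seed, 0.33 for the 5 pairs that share a seed across clusters, and 0.50 for the 7 pairs that share a cluster but not a seed. It was 0.42 for the 7 pairs that share neither. Among the 7 bright members, which these medians cover, the closest pair was miR-17-5p and miR-20a-5p at 0.18, and the farthest was miR-19b-3p and miR-92a-3p at 0.96. The dim miR-18a-5p, left out of the medians, lay at 0.08 from miR-20a-5p and at 0.16 from miR-17-5p, with which it shares a cluster and no seed. These medians rest on few pairs, the pairs share members and arrays, and members with a common seed also have the most similar probes, so they are given as a description.

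Other miRNAs on the array carry the members' seeds. The miR-17 seed occurs in 7 miRNAs, of which miR-106a-5p and miR-20b-5p were bright on all 5 arrays and miR-6383 stayed near background. Both bright ones come from the paralogous miR-106a-363 cluster. Their ratios for D3, D5 and D7 over D0 were 0.868, 1.04 and 1.20 for miR-106a-5p and 0.794, 0.912 and 1.44 for miR-20b-5p. In aged over young skin they were 1.06 and 0.563, below all 4 members with this seed, which lay between 1.22 and 1.91. The remaining 2 guide arms of the paralogous cluster on the array, miR-18b-5p and miR-363-3p, were detected on D3 and D7 only and were never bright.

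The miR-92 seed occurs in 6 miRNAs, and besides miR-92a-3p and miR-25-3p only miR-92b-3p was bright. This miRNA comes from a locus of its own and differs from miR-92a-3p by U10C and G21C, with a length of 22 bases against 21.
mmu-miR-92b-3p: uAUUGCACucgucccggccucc

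It is shown because its values ran close to those of miR-92a-3p. The scanned intensity of miR-92b-3p was 620 in young skin, and 495, 444, 514 and 444 in aged skin at D0, D3, D5 and D7. Its ratios were 0.758 on D3, 1.16 on D5, 0.536 on D7 and 2.19 in aged over young skin, beside 0.961, 1.10, 0.497 and 2.35 for miR-92a-3p. Whether part of either signal came from the other miRNA was not tested. The dim carriers of this seed, miR-32-5p, miR-363-3p and miR-367-3p, were never bright, and miR-19a-3p and miR-19b-3p were the only carriers of the miR-19 seed.

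The opposite arms of the same hairpins were weak. All 9 other arms were on the array and none was bright on any array, so their ratios follow background closely. The median ratio of those detected on at least 1 array of a comparison was 1.05 on D3, 1.17 on D5 (5 detected), 0.954 on D7 and 0.987 in aged over young skin. Single ratios over D0 lay between 0.792 and 1.25 on the 3 wound days.

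The 5 miRNAs outside the clusters with the profile most like the members' mean profile, among 192 that were bright on all 5 arrays, were miR-341-5p, miR-6239, miR-674-5p, miR-23a-3p and miR-22-3p. Their distances were 0.08, 0.08, 0.10, 0.11 and 0.11. The first pair of them were among the 3 brightest probes on every array, where quantile normalization fixes the value, so their likeness is set by the method. The mean profile itself was flat over the wound days, at 0.15, 0.12, -0.02 and 0.01 for D0, D3, D5 and D7, and lowest in young skin at -0.26. It is the mean of the centred log2 levels of all 9 members, with the dim miR-18a-5p and miR-19a-3p included.

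The ratios of the bright miRNAs varied with the GC content of their targets. For D3 over D0, the median ratio was 0.656 at a GC content of at most 42.9%, 0.744 in between, and 1.53 at 61.4% or more. The members ranged from 34.8% for miR-19a-3p to 57.1% for miR-92a-3p, and no member reached the upper range. Among bright members, miR-19b-3p and miR-20a-5p had the lowest GC content (39.1%) and miR-92a-3p the highest, followed by miR-93-5p (52.2%). The last 2 were the highest in aged over young skin and the lowest on D7. Over all bright miRNAs, the median ratios of the low, middle and high ranges were 0.982, 0.790 and 1.03 on D7, and 1.04, 1.22 and 1.26 in aged over young skin. The part of GC content in the members' ratios was not tested.

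**Figure D4:**
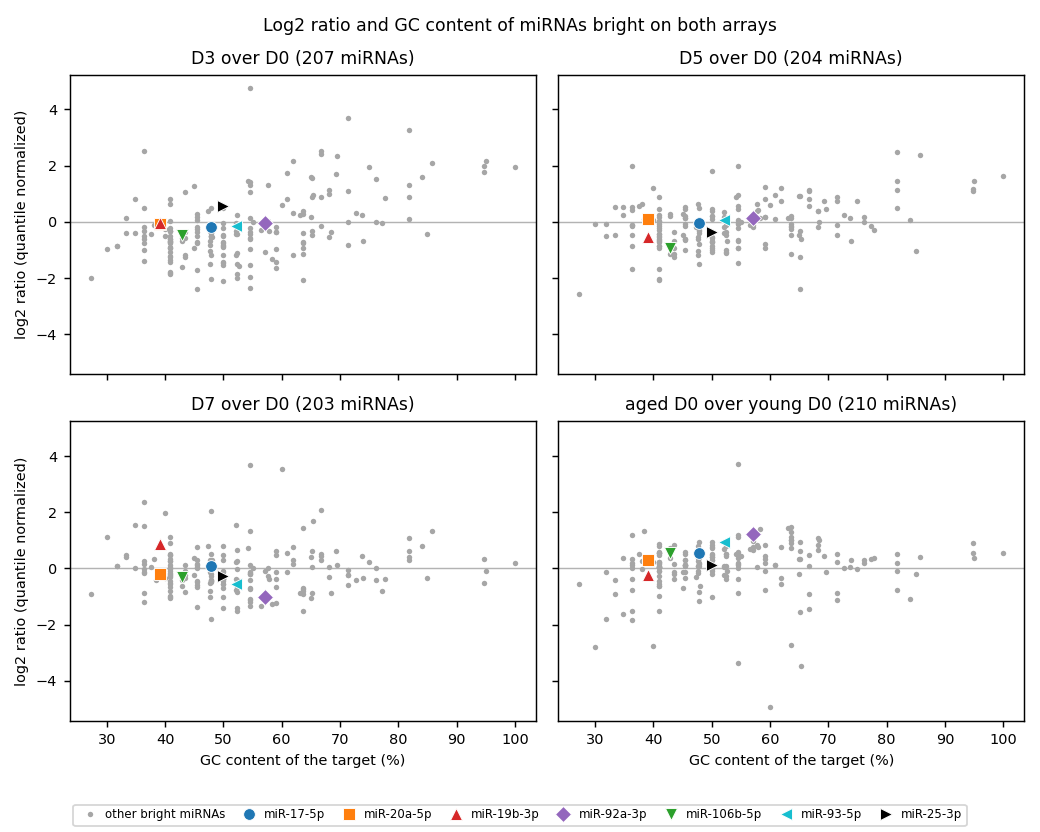
Log2 ratio against the GC content of the target (%) for miRNAs bright on both arrays of each comparison, with the 7 bright members in colour and the others in grey. For D3 over D0, grey points above 61.4% GC lie mostly above 0, and the members lie between 39.1% and 57.1%. On D7 and in aged over young skin, miR-92a-3p is the member with the highest GC content and the most extreme ratio.

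Markers of other cell types also differed between the samples. The 5 leukocyte miRNAs on the array had a summed scanned intensity of 901 in unwounded aged skin, with 4 of 5 detected, and of 4071, 2389 and 4172 on D3, D5 and D7, with 5 of 5 detected. In young unwounded skin the sum was 5829. These sums are neither background corrected nor normalized between arrays. The empty spots averaged 96.9 at aged D0, 52.9 on D3, 57.4 on D5, 85.8 on D7 and 92.8 in young skin. At aged D0, miR-142a-3p was below the detection level, so no exact fold is given for it. The ratios on D3, D5 and D7 over D0 were 15.3, 8.76 and 8.14 for the myeloid miR-223-3p, and 6.11, 3.28 and 4.39 for miR-142a-5p. They were 1.84, 2.01 and 2.22 for miR-155-5p, which like miR-142a-5p was close to the detection level at D0. By contrast, the lymphocyte miRNA miR-150-5p, the only one of the list bright at aged D0, gave 0.743, 1.48 and 1.08. In aged over young skin, the 4 ratios were 0.243, 0.268, 0.757 and 0.774 in this order. The part of leukocytes in the members' ratios was not tested.

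Of 3 erythroid miRNAs on the array, miR-451a and miR-486a-5p were detected on all 5 arrays and miR-144-3p on D3 only. Their summed scanned intensity, also uncorrected, was 2496 in young skin, and 2034, 982, 1284 and 1178 in aged skin at D0, D3, D5 and D7. The ratios of miR-451a were 0.601, 0.927 and 0.437 on D3, D5 and D7 over D0, and 2.28 in aged over young skin. For miR-486a-5p they were 0.236, 0.450 and 0.233, and 2.00. Those of miR-92a-3p, also abundant in blood, were 0.961, 1.10, 0.497 and 2.35. The part of blood RNA in these values was not tested. The epidermal markers had median ratios of 0.404, 0.438 and 0.595 on the 3 wound days and of 1.28 in aged over young skin, and the skeletal muscle markers 0.294, 0.512, 0.516 and 0.966. Set against these, the median ratios of the members detected were nearer to 1 on D3, D5 and D7, at 0.961, 1.01 and 0.871, but farther from 1 in aged over young skin, at 1.41. The epidermal list holds miR-200a-3p and miR-200b-3p but leaves out miR-200c-3p, of the same family. On D3, all 4 listed epidermal markers had ratios below 1, whereas the log2 ratio of miR-200c-3p was 1.07. That of miR-200c-3p was -0.36 on D5, -0.83 on D7 and 0.83 in aged over young skin. The paper also reports a rise of miR-200c on D3 in aged wounds. The epidermal medians thus describe the listed markers only.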

How the data were processed

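Total RNA from each skin sample was labelled through a ligated adapter and hybridized by a service provider to a single-colour miRNA array. The authors deposited the unnormalized median intensity scanned at each spot, on a linear scale and with empty background columns, and a table of processed intensity whose scaling is not stated in the sources used here (column medians 5.43 to 8.09 over all miRNAs). Scanned intensities were background corrected on all spots with the normexp method of limma 3.58.1 in R 4.3.3 (offset 50, fitted without local background), log2 transformed, stripped of control spots and quantile normalized across arrays, before repeat spots were averaged to 1 level per miRNA. Tables were handled with pandas 2.3.3 and numpy 2.4.6 in Python 3.11.15. Normalization was tested on arrays simulated from the aged D0 spots. These had no differences in overall brightness or background, so the test could not show how well the scaling between the real arrays works. Groups came from the sample labels. Wound samples were set against aged D0, and aged D0 against young D0, as ratios. Counts past 2-fold cover miRNAs detected in either sample of a comparison. No test was run, since each condition has 1 array, and precision is limited by how few arrays there are.

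The alternatives were unnormalized values, scaling to the 75th percentile over miRNAs found on all arrays, to the median miRNA probe or to 11 spike calibration controls, cyclic loess, an offset of 16, no background correction, and the deposited processed values with values under 1 set to 1. For counts, a 1.5-fold threshold was added. The members and all lists (other arms, the miR-106a-363 cluster, the miR-15/16 and miR-34 families, and epidermal, skeletal muscle, leukocyte and erythroid miRNAs) were chosen with earlier results of these data known. The text names all members, other carriers of their seeds, and the 5 bright miRNAs with the most similar profile. Sequences and positions are from RefSeq (GRCm38.p6). Young wounds, profiled on another platform, and the erythroid miR-486b-5p were not analysed here.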

Additional observations from a re-analysis of the deposited data

How the results depend on the processing

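No paired analysis was possible because no condition had a second array. The median ratio of the 9 members moved mainly with the scaling between arrays. For D3 over D0, it was 0.961, and became 1.11 with cyclic loess, 0.830 with 75th percentile scaling, 1.26 with median scaling, 0.591 with spike control scaling and 1.18 in the deposited processed values. For D5 over D0, it was 0.982, and became 0.799 without normalization, 0.875 with 75th percentile, 1.08 with median and 0.599 with spike control scaling. For D7 over D0, it was 0.871, and became 1.25 without normalization, 1.31 with median and 1.27 with spike control scaling. For aged over young skin, it was 1.36, and became 1.14 with cyclic loess, 0.521 without normalization, 1.74 with 75th percentile, 0.469 with median and 0.65 with spike control scaling.

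The count of members at least 2-fold changed on D3 went from 0 to 1 with median scaling (miR-25-3p, 2.04), and to 1 in the deposited processed values, where miR-19a-3p is listed at 0 in D0 skin and no fold can be given. On D5 it went from 0 to 1 with an offset of 16 (miR-106b-5p, 0.496), to 2 with spike control scaling (miR-106b-5p, 0.420, and miR-25-3p, 0.494) and to 1 at a 1.5-fold threshold. On D7 it went from 1 to 0 with cyclic loess and to 2 at 1.5-fold. It stayed at 1 elsewhere, but this member was miR-19b-3p in place of miR-92a-3p without normalization (2.82), with median scaling (2.96) and with spike control scaling (2.86), and miR-19a-3p in the processed values. In aged over young skin, the 1 member was miR-92a-3p, higher. The count became 3, all higher, with 75th percentile scaling and 2 at 1.5-fold. It became 4 without normalization, 5 with median scaling and 2 with spike control scaling, but there every member counted was lower and none was miR-92a-3p.

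The ratio of miR-92a-3p in aged over young skin reversed to 0.905 without normalization and to 0.815 with median scaling. Of 288 alternative values of single members' ratios, 140 moved by less than the spread of repeat spots. Values crossed to the other side of 1 in 56 of 216 for the wound days and in 24 of 72 for aged over young skin, and 2 of these were of a ratio past 2-fold, the pair given above. The cause of these shifts beyond the scale factors was not tested. Signal over background limits miR-18a-5p and miR-19a-3p, and no value holds variation between animals. The ratios of miR-19b-3p also rest on weak scans, at 2.14 times the detection level at aged D0 and 2.37 times on D5.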

Other observations

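Other miRNA families that are known to act on the cell cycle also varied between the samples. Of the miR-15/16 family, which restrains the cell cycle, all 5 members on the array were bright throughout. The ratios of miR-195a-5p were 0.328, 0.449 and 0.653 on D3, D5 and D7 over D0, and those of miR-497a-5p, from the same cluster, were 0.359, 0.500 and 0.771. In contrast, miR-15b-5p gave 1.54, 1.17 and 1.20, miR-16-5p gave 1.14, 1.43 and 1.11, and miR-15a-5p gave 1.01, 1.02 and 1.88. In aged over young skin, the 5 lay between 0.507 for miR-15a-5p and 1.46 for miR-15b-5p. Of the p53-induced miR-34 family, only miR-34a-5p was bright on all 5 arrays, with ratios of 0.439, 0.609 and 0.622 over D0 and of 1.76 in aged over young skin. All of these ratios share the scaling of the members' ratios and have no replicate.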
